A study of Chlorocebus sabaeus with 12 samples.

Results

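A set of 8 names on a human expression array, 7 genes and 1 unannotated probe, was followed across COS-1 cells that carried mutants of the bile acid receptor FXR: MYOM2, BAIAP2L2, SAMD11, MEGF6, ASB2, CCDC37, WDFY4 and A_32_P232437. They make up 8 of 30982 names and 10 of 41000 probes on the array, and all 8 were among the 20355 genes that passed the filter on dim probes. None is on the usual lists of FXR targets. They were chosen by their measured values on these same arrays, as raised by the bile acid in S154A cells or lower in S154D than in S154A cells under the bile acid. Those 2 differences are therefore given below as a description, with no test. The other comparisons, which the choice did not use, were tested: bile acid against vehicle in S154D cells, and S154D against S154A cells in vehicle.

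COS-1 is a line of kidney cells from the African green monkey that was transformed with a viral large T antigen. All cells were transfected for 24 h with human FXR, as its S154D or its S154A form, and then kept for 24 h with CDCA (chenodeoxycholic acid, given in the labels as 50 mM, which may be a slip in the unit) or with its vehicle, DMSO at 0.1%. This gave 4 groups of 3 arrays, named here S154D_CDCA, S154D_DMSO, S154A_CDCA and S154A_DMSO. Wild-type receptor and mock-transfected cells were not part of the design. The labels used here do not give the promoter of the plasmid, the share of cells that took it up, or whether the replicates were separate cultures, so p-values measure the spread between these arrays. The probe of NR1H4, the gene of FXR, lay between 7.46 and 7.95 on the log2 scale on all 12 arrays. The share of spots well above background was 61.6% to 79.8% per array, and the number of arrays limits the precision.

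FXR is a nuclear receptor that bile acids such as CDCA activate. It binds DNA, mostly together with the retinoid X receptor, and switches on genes that move bile acids out of cells or limit their synthesis. The mutated serine is a site that kinases can modify. Alanine at that place lacks the hydroxyl group that takes up the phosphate, and aspartate carries a negative charge, as a phosphoserine does. The 7 named genes belong to other fields of cell biology. MYOM2 encodes a myomesin, which cross-links thick filaments in the M-band of striated muscle, and ASB2 encodes the substrate-binding subunit of a cullin ubiquitin ligase. BAIAP2L2 encodes an I-BAR protein that binds curved membranes in epithelia, and MEGF6 a protein with many EGF-like repeats. SAMD11 encodes a protein with a sterile alpha motif. CCDC37, now called CFAP100, encodes a coiled-coil protein of cilia and flagella. WDFY4 encodes a BEACH-domain protein of dendritic cells and B cells.

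The measurements come from human 60-base probes hybridised with monkey RNA, so the probes are shown where the results turn on which stretch of a transcript was read. A set of 5 is given, 5′ to 3′ as the scanner files list them, with positions in the human build hg17. For A_32_P232437 the whole probe is given, because the sequence is all that identifies it. It lies on the minus strand at chr10:134785507-134785566, and the files describe it only as unknown. For BAIAP2L2 and MEGF6, which have 2 probes each, the last 30 bases (31 to 60) of each probe are given. Capitals mark AATAAA, the usual polyadenylation signal, searched on the probe's own strand: 1 of the 10 probes holds it, against 4.16% of all 41000 probes.
A_32_P232437: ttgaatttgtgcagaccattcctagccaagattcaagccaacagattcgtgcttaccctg
BAIAP2L2 A_23_P379034: atgatgagaAATAAAggaagtggacgcaaa
BAIAP2L2 A_23_P166467: ttaatttgtaggagctcttgatatgttact
MEGF6 A_23_P62583: ctggaagtcgcccagcccgtatttatgtaa
MEGF6 A_24_P926960: caaatggcctaggaattcagagagtcagaa

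The BAIAP2L2 probes lie on the minus strand at chr22:36805407-36805466 (A_23_P379034) and chr22:36812304-36812363 (A_23_P166467), 6.90 kb apart. The MEGF6 probes lie on the minus strand at chr1:3429819-3429878 (A_23_P62583) and chr1:3428154-3428213 (A_24_P926960), 1.67 kb apart. The other probes lie on chromosome 8 (MYOM2), at chr1:919591-919650 on the plus strand (SAMD11), at chr14:93470354-93470413 on the minus strand (ASB2), at chr3:127637282-127637341 on the plus strand (CCDC37) and at chr10:49860874-49860933 on the plus strand (WDFY4). Their exon or UTR position was not analysed here. The G and C content of the 10 probes ran from 35% to 58.3%, against a median of 45% over the genes tested.

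All 8 members shared one pattern: the 3 S154A_CDCA arrays were the highest of the 12, with no overlap with any other group, which the choice of members favours. Levels below are log2 signal relative to the 75th percentile of the array's spots, so that 0 is that percentile and negative values are dimmer. Differences are log2 differences from a limma fit of the 4 group means, with the standard error of the fit. A gene was called at an adjusted p (Benjamini-Hochberg, over all genes tested) under 0.05, two-sided. For S154A_CDCA against S154A_DMSO the members' differences ran between 1.09 and 3.09. Of the 8, 7 were called higher, beside 0.128% of all genes, as the choice of members requires, and 8 of 8 had no overlap between the groups, beside 3.69%. For S154D_CDCA against S154A_CDCA they ran between -3.74 and -0.88, and 8 of 8 were called lower, beside 0.329% of all genes, again without overlap in 8 of 8, beside 7.62%. WDFY4 is the member that was called in the second comparison and not in the first, at 1.29 ± 0.23 in the first. Since whole cultures were measured, more cells carrying a transcript and more transcript per cell cannot be told apart.

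**Figure D1:**
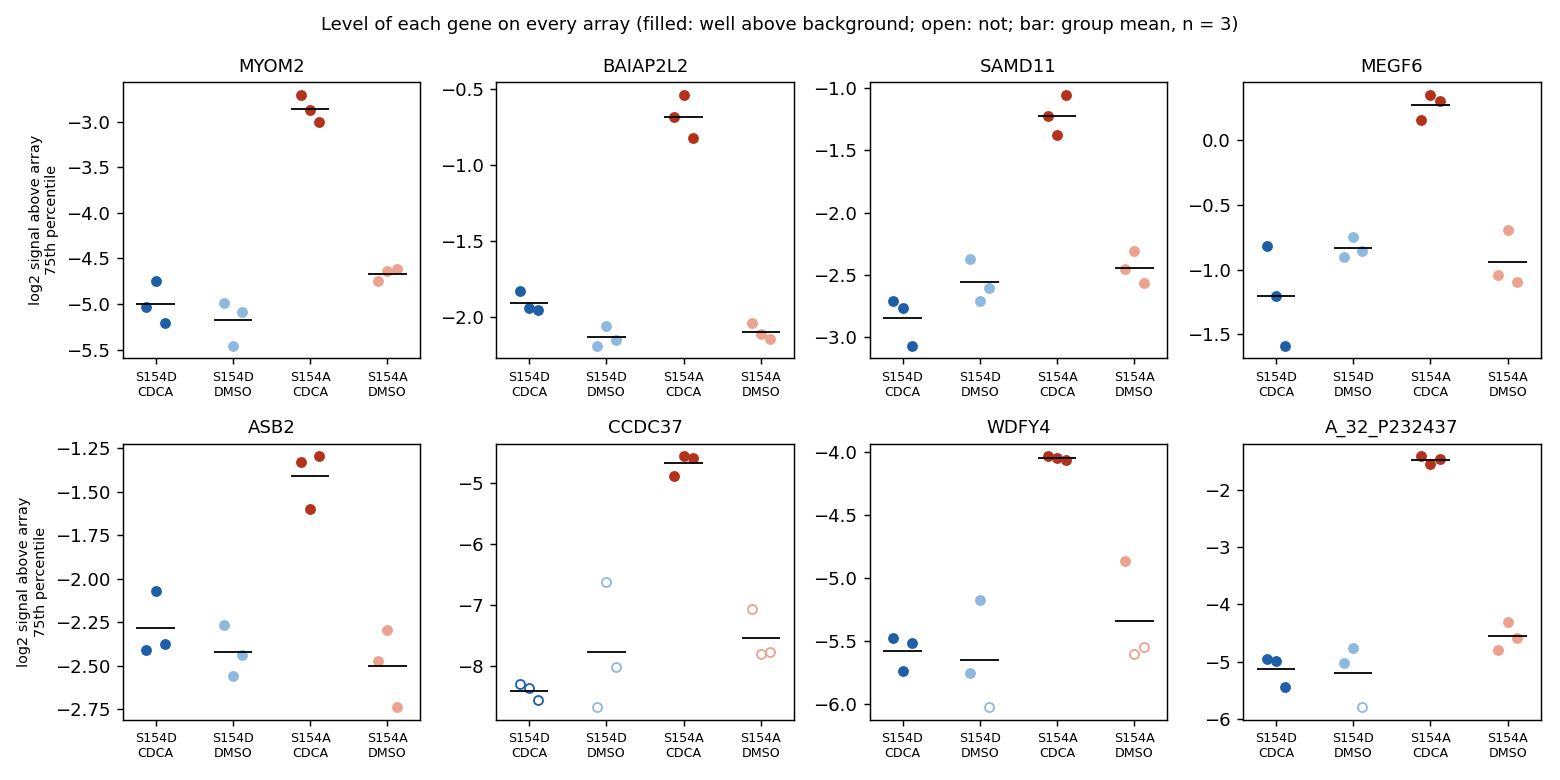
Level of each of the 8 members on every array (y, log2 signal above the array's 75th percentile, own scale per panel) in the 4 groups (x), with filled points well above background, open points not, and a bar at the mean of 3 arrays. In every panel the S154A_CDCA arrays lie above all others, and CCDC37 is well above background in that group alone.

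MYOM2 and ASB2 are the members with known roles in muscle. MYOM2 stood at -5.03, -4.75 and -5.21 on the S154D_CDCA arrays and at -4.99, -5.46 and -5.09 on the S154D_DMSO arrays. On the S154A_CDCA arrays it stood at -2.71, -2.88 and -3.00, against -4.75, -4.64 and -4.61 on the S154A_DMSO arrays. The order of its group means was S154A_CDCA, S154A_DMSO, S154D_CDCA and S154D_DMSO, and only the last 2 overlapped. The lowest S154A_DMSO array and the highest S154D_CDCA array nearly touched, and both round to -4.75. MYOM2 was thus 3.50-fold higher with CDCA in S154A cells (log2 difference 1.81 ± 0.15) and 4.40-fold lower in S154D than in S154A cells under CDCA (-2.14 ± 0.15). After normexp background correction these became 1.15 and -1.32.

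ASB2 stood at -2.41, -2.07 and -2.38 on the S154D_CDCA arrays and at -2.26, -2.56 and -2.44 on the S154D_DMSO arrays. With S154A it stood at -1.33, -1.60 and -1.30 on the CDCA arrays, against -2.47, -2.30 and -2.74 on the DMSO arrays. Apart from S154A_CDCA, its groups overlapped with their neighbours in the order of means. Its differences were the smallest of the members, 1.09 ± 0.15 for CDCA in S154A cells (2.14-fold) and -0.88 ± 0.15 for S154D against S154A under CDCA (1.84-fold lower).

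BAIAP2L2 and MEGF6 were read by 2 probes each, and the pairs behaved differently. The BAIAP2L2 probe that holds AATAAA, A_23_P379034, stood at -1.83, -1.94 and -1.96 on the S154D_CDCA arrays and at -2.19, -2.06 and -2.15 on the S154D_DMSO arrays. On the S154A_CDCA arrays it stood at -0.68, -0.54 and -0.82, against -2.04, -2.12 and -2.15 on the S154A_DMSO arrays. Its replicates lay close together, and the differences were 1.42 ± 0.10 (2.68-fold) for CDCA in S154A cells and -1.23 ± 0.10 (2.34-fold lower) for S154D against S154A under CDCA. The other BAIAP2L2 probe, which is annotated to another transcript record, was not well above background on any of the 12 arrays. Whether AATAAA serves as a polyadenylation signal here was not tested.

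For MEGF6 both probes were well above background on all 12 arrays. The brighter, A_23_P62583, stood at -0.81, -1.20 and -1.59 on the S154D_CDCA arrays and at -0.90, -0.75 and -0.85 on the S154D_DMSO arrays. It stood at 0.16, 0.35 and 0.31 on the S154A_CDCA arrays, against -1.04, -0.70 and -1.09 on the S154A_DMSO arrays. The other 3 groups overlapped, and the S154D_CDCA arrays were the most spread, with an SD of 0.39. Its differences were 1.22 ± 0.18 (2.32-fold) for CDCA in S154A cells and -1.47 ± 0.18 (2.78-fold lower) for S154D against S154A under CDCA.

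The second MEGF6 probe, A_24_P926960, showed larger differences of means in the same directions, 2.00 (4.01-fold) and -2.10. It stood at -2.90, -2.94 and -3.44 on the S154D_CDCA arrays and at -2.84, -2.87 and -2.93 on the S154D_DMSO arrays. On the S154A_CDCA arrays it stood at -1.05, -1.03 and -0.91, against -3.03, -2.86 and -3.10 on the S154A_DMSO arrays. The 2 MEGF6 probes thus gave the same order of S154A_CDCA above the rest but not the same size of change.

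**Figure D2:**
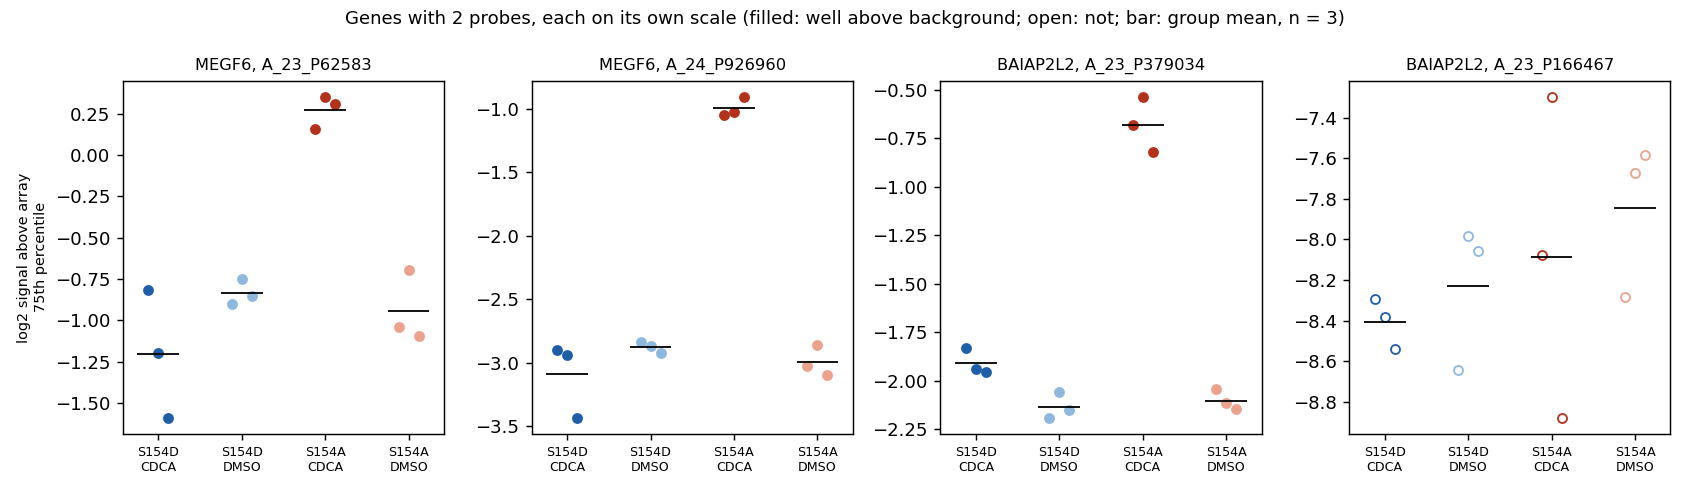
Level per array (y, log2 signal above the array's 75th percentile, own scale per panel) for both MEGF6 probes and both BAIAP2L2 probes in the 4 groups (x), with filled points well above background, open points not, and a bar at the mean of 3 arrays. Both MEGF6 probes and 1 BAIAP2L2 probe have their highest arrays in S154A_CDCA, and the other BAIAP2L2 probe is open throughout.

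SAMD11 stood at -2.71, -2.76 and -3.07 on the S154D_CDCA arrays and at -2.37, -2.71 and -2.60 on the S154D_DMSO arrays. Among S154A cells it stood at -1.23, -1.38 and -1.06 on the CDCA arrays, against -2.45, -2.31 and -2.57 on the DMSO arrays. The highest S154D_CDCA array and the lowest S154D_DMSO array both round to -2.71. Its differences were 1.22 ± 0.14 (2.33-fold) for CDCA in S154A cells and -1.63 ± 0.14 (3.09-fold lower) for S154D against S154A under CDCA.

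CCDC37 was well above background on the 3 S154A_CDCA arrays only, at -4.87, -4.55 and -4.58. It passed the filter through that group alone, so a difference was built in. On the other 9 arrays its level is not known. Lower values were raised to the dimmest signal well above background on the same array. CCDC37 was then 2.08-fold higher in S154A_CDCA than in S154A_DMSO cells. It was 2.95-fold lower in S154D_CDCA than in S154A_CDCA cells. Both folds hold for the main processing only and are no firm minimum. The fitted differences, 2.88 and -3.74, rest on signal near background and became 0.86 and -0.999 after normexp background correction.

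WDFY4 was dim. It stood at -5.47, -5.74 and -5.52 on the S154D_CDCA arrays and at -5.75, -5.17 and -6.03 on the S154D_DMSO arrays, of which 2 of 3 were well above background. On the S154A_CDCA arrays it stood at -4.04, -4.05 and -4.06, the closest replicates of any member, against -4.87, -5.61 and -5.54 on the S154A_DMSO arrays, of which 1 was well above background. The difference for S154D against S154A under CDCA was -1.53 ± 0.23 (2.88-fold lower). With normexp it was -0.72, and the difference for CDCA in S154A cells was 0.63.

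A_32_P232437 had the largest difference among members measured in both groups. It stood at -4.95, -5.00 and -5.44 on the S154D_CDCA arrays and at -5.02, -4.76 and -5.80 on the S154D_DMSO arrays, of which the last was not well above background. On the S154A_CDCA arrays it stood at -1.41, -1.55 and -1.46, against -4.79, -4.30 and -4.59 on the S154A_DMSO arrays. It was 8.50-fold higher with CDCA in S154A cells (3.09 ± 0.25) and 12.6-fold lower in S154D than in S154A cells under CDCA (-3.66 ± 0.25). After normexp background correction the log2 differences were 2.29 and -2.64. On the same scale of differences, the known FXR target OSTalpha, a subunit of the bile acid exporter, had 2.55 ± 0.18 and -2.38 ± 0.18. SDC1, which encodes the cell surface proteoglycan syndecan-1, had 1.14 ± 0.12 and -1.04 ± 0.12. They belong to a list of 46 known FXR targets, of which 44 were on the array and 25 passed the filter on dim probes. The targets that failed it have no result here. Of the 25 tested, 5 were called higher with CDCA in S154A cells, beside 0.128% of all genes. Under CDCA 5 were called lower in S154D than in S154A cells, beside 0.329% of all genes. In both cases these were FABP6, FGF19, OSTalpha, FETUB and SDC1. FGF19 was well above background on 5 arrays only, and its means outside S154A_CDCA lay between -7.18 and -6.87. FABP6, the ileal bile acid-binding protein, had the widest differences, 7.08 ± 0.57 and -8.51 ± 0.57. It was well above background on 9 arrays and not on the others. Its means were -5.99 in S154D_CDCA and -6.15 in S154D_DMSO, so the size of -8.51 may rest in part on signal near background.

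The arrays lay on 4 slides, as the names of the scanner files show, and slides hold more than 1 group. With S154A, CDCA and DMSO shared slides 1 and 3. The members' differences ran between 0.81 (WDFY4) and 3.33 (A_32_P232437) within slide 1, and between 1.25 (MEGF6) and 3.18 (A_32_P232437) within slide 3. S154D_CDCA and S154A_CDCA shared slide 3 only, where the members' differences ran between -3.59 (A_32_P232437) and -0.74 (ASB2). With slide as a block every member kept its direction in both comparisons, but 3 of 8 and 1 of 8 were called. S154D_CDCA and S154D_DMSO also shared slide 3 only. S154D_CDCA replicates 1 and 3 lay on slide 2, which held no S154D_DMSO array. In S154D cells CDCA and slide can therefore not be fully told apart.

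In S154D cells CDCA changed none of the 8 members past the test, beside 10.2% of all genes called. This comparison shares its CDCA arrays with the choice of members. Of the fitted differences 5 were positive and 3 negative, with a median of 0.07, against -0.01 over all genes. BAIAP2L2 came nearest, at 0.22 ± 0.10, with no overlap between the groups and an adjusted p of 0.155 (limma; unadjusted p = 0.0445, 95% interval 0.01 to 0.44). SAMD11 was at -0.29 ± 0.14 (adjusted p = 0.200), also without overlap. Non-overlap of this kind held for 20% of all genes in the higher direction and for 13.6% in the lower. Over all genes the differences of this comparison fell with the G and C content of the probe (Spearman -0.56). After probe GC correction BAIAP2L2 was at 0.06, SAMD11 at 0.03 and MEGF6 at -0.08.

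The intervals of the following members all include 0. MYOM2 was at 0.18 (95% interval -0.16 to 0.52, adjusted p = 0.467 by limma), and ASB2 at 0.14 (-0.20 to 0.47, adjusted p = 0.584). A_32_P232437 was at 0.06 (-0.48 to 0.61, adjusted p = 0.889), and WDFY4 at 0.07 (-0.44 to 0.59, adjusted p = 0.861). MEGF6 was at -0.37 (-0.77 to 0.04, adjusted p = 0.206). CCDC37 was not well above background in either group, and its fitted difference is not read. Within slide 3, the one that both groups share, the differences of the 7 others ran between -0.35 (MEGF6) and 0.80 (A_32_P232437). For A_32_P232437 the S154D_DMSO array on that slide was not well above background.

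Between the mutants in vehicle, S154D_DMSO against S154A_DMSO, 0 of 8 members were called by limma, beside 0% of all genes. At an unadjusted p under 0.05 there were 884 genes. The S154A_DMSO arrays are shared with the choice of members. MYOM2 was lower in S154D_DMSO, at -0.51 ± 0.15, without overlap between the groups, and did not pass the adjustment (unadjusted p = 0.00756, adjusted p = 0.996, limma). Non-overlap in the lower direction held for 6.17% of all genes. A_32_P232437 was at -0.63 ± 0.25 (unadjusted p = 0.0276, adjusted p = 0.996, limma), with overlap. Within slides 1 and 3, MYOM2 was at -0.25 and -0.48, and A_32_P232437 at -0.23 and -1.21. The slide 3 value of A_32_P232437 rests on an S154D_DMSO array that was not well above background. For BAIAP2L2, SAMD11, MEGF6, ASB2 and WDFY4 the differences ran between -0.31 and 0.11.

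**Figure D3:**
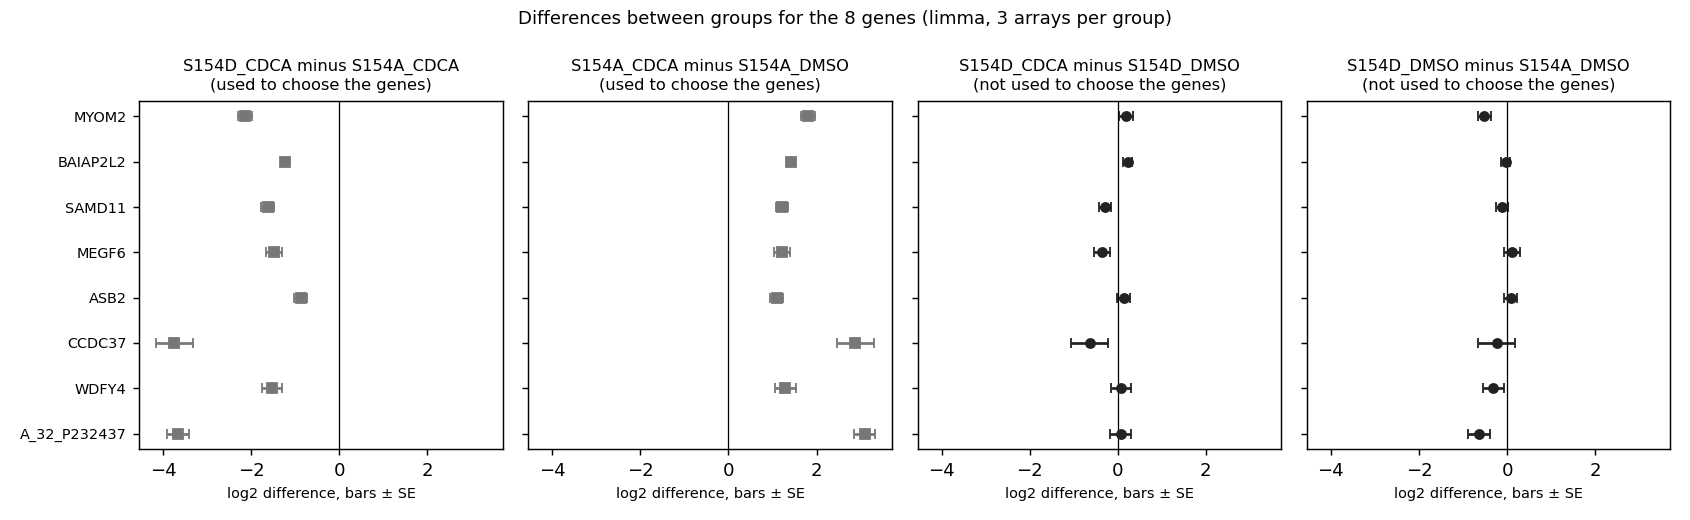
Log2 differences (x) of the 8 members (rows) in 4 comparisons (panels), with bars of ± 1 standard error from the limma fit, 3 arrays per group. Squares mark comparisons used to choose the members and circles the others. The circles lie between -0.63 and 0.22, those of CCDC37 from signal not well above background, and the squares reach -3.74 and 3.09.

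To place the members among all genes, the 3 genes with the most similar pattern were found for each, among 14091 genes with a symbol and values on all arrays. Likeness was the root mean square difference between levels centred on their mean over the 12 arrays. The result was 14 genes. OSTalpha and the retinol carrier RBP4 were nearest or next to it for MYOM2 (RBP4 0.28, OSTalpha 0.37) and CCDC37 (RBP4 0.67, OSTalpha 0.69). The plasma glycoprotein HRG came first for A_32_P232437 (0.52), before RBP4 (0.54) and OSTalpha (0.55). SDC1 was nearest to ASB2 (0.16) and the metallothionein MT2A nearest to BAIAP2L2 (0.18), with RGS16, a regulator of G protein signalling, at 0.25 from BAIAP2L2 and 0.19 from ASB2. PPP1R1A, an inhibitor of protein phosphatase, was nearest to SAMD11 (0.21), PAQR4 to MEGF6 (0.16) and fetuin-B, FETUB, to WDFY4 (0.25). The other like genes were LRRC38, ITIH3, KRT86, PUS1 and C1orf170.

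Likeness to the members picks for high S154A_CDCA arrays, so the like genes' calls in those comparisons are a description. Of the like genes 8 of 14 were called higher with CDCA in S154A cells, beside 0.128% of all genes. Under CDCA 13 of 14 were called lower in S154D than in S154A cells, beside 0.329%. In S154D cells CDCA gave them differences between -0.41 (C1orf170) and 0.40 (MT2A, adjusted p = 0.0646, limma). Among the members themselves the closest pair was SAMD11 and MEGF6, at 0.19, and the most distant was ASB2 and CCDC37, at 1.18. All of these patterns are read from the same 12 arrays.

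**Figure D4:**
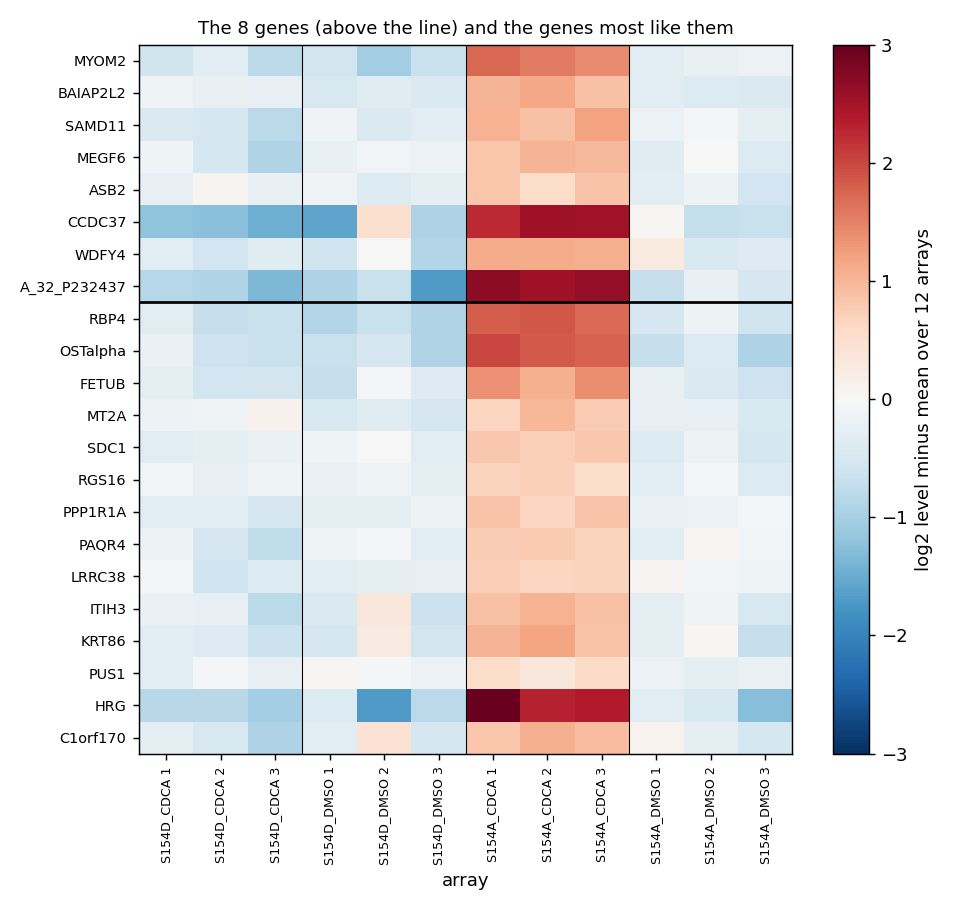
Centred log2 level (colour, level minus the gene's mean over 12 arrays) of the 8 members, above the line, and the 14 genes most like them (rows) on each array (columns). The 3 S154A_CDCA columns are red in every row, and A_32_P232437, CCDC37 and HRG are the deepest.

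Genes that lie close to the members on the human chromosomes were examined next, a choice made after earlier results were known. Within 100 kb of 7 members there were 26 genes tested, 17 of them with a symbol. With CDCA in S154A cells 0 of 26 were called by limma, beside 0.133% of all genes called in either direction, and their median difference was -0.01. NOC2L, whose product acts in ribosome assembly, has its probe 0.2 kb from that of SAMD11 and was at 0.08 ± 0.12. Under CDCA, 1 of 26 was lower in S154D than in S154A cells, beside 0.403% of all genes in either direction. This was C1orf170, 31.1 kb from SAMD11, at -1.50 ± 0.26 (adjusted p = 0.0492, limma), and at 1.17 ± 0.26 for CDCA in S154A cells (adjusted p = 0.318). For CDCA in S154D cells 3 of 26 were called, or 11.5%, near the 10.2% of all genes. KLF15, a zinc finger transcription factor near CCDC37, was at 0.95 and PRDM16, a zinc finger regulator near MEGF6, at 0.65. KLHL17, a kelch protein near SAMD11, was at -0.82.

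**Figure D5:**
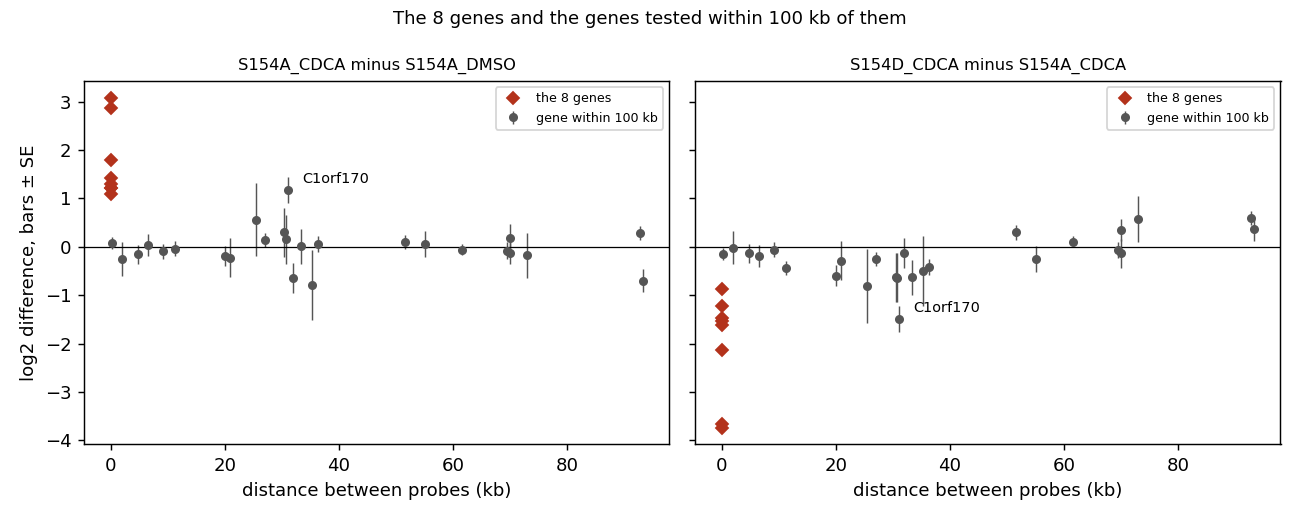
Log2 difference (y) against the distance in kb between probes (x) for 26 genes within 100 kb of a member (circles, bars ± 1 standard error) and the 8 members at distance 0 (diamonds), for S154A_CDCA minus S154A_DMSO and S154D_CDCA minus S154A_CDCA. C1orf170 is the neighbour farthest from 0 in both panels.

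Relatives of the members, by family or structure, were read from 7 lists with 80 genes tested. Lists of sarcomere and M-band genes (14 tested), SAMD genes (9), MEGF and EGF-like genes (8), ASB genes with their cullin ligase (18), axoneme genes (19), BEACH genes (9) and I-BAR genes (3), all without the members, held 0 calls by limma for CDCA in S154A cells, beside 0.133% of all genes. Their medians there ran between -0.14 (sarcomere) and -0.03 (BEACH), against -0.04 over all genes, except the I-BAR list at 0.46. BAIAP2L1, a relative of BAIAP2L2 and a regulator of actin at membranes, was lower in S154D than in S154A cells under CDCA (-0.91 ± 0.13, adjusted p = 0.0163, limma). It was the one gene of the 7 lists called in that comparison, 1 of 80 or 1.25%, beside 0.403% of all genes.

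For CDCA in S154D cells 8 of the 80 relatives were called, or 10%. This share is near the 10.2% of all genes, so the count is not a result about the relatives. BAIAP2L1 fell (-0.59 ± 0.13) and MTSS1, another I-BAR protein, rose (0.44 ± 0.11), and NBEAL2, a BEACH protein of platelet granules, fell (-1.12 ± 0.30) while LYST, a BEACH protein of lysosomes, rose (0.57 ± 0.13). SAMD1 (-0.75 ± 0.17), SAMD14 (-0.42 ± 0.10) and EGFL9 (-0.66 ± 0.17) fell, and ASB7 rose (0.48 ± 0.12). These 8 adjusted p-values lay between 0.0303 and 0.0453 by limma. With slide as a block no gene of the whole array was called in this comparison, where 4508 had an unadjusted p under 0.05.

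Markers of cell types were read on the same arrays. Of the markers of skeletal muscle, where MYOM2 and ASB2 are at home, MYF5, MYF6, MB and MYH1 were well above background on no array. On all 12 arrays 10 of 17 were, among them MYOD1, MYOG, DES and ACTA1. The muscle markers tested summed to between 3.65 and 3.78 in S154D_CDCA and 3.90 and 4.07 in S154D_DMSO. The sums were 3.69 to 4.00 in S154A_CDCA and 3.69 to 3.88 in S154A_DMSO (log2 of the summed signal over the 75th percentile). The S154D_CDCA arrays lay below the S154D_DMSO arrays without overlap, as 13.6% of all genes did when taken singly. The sum is led by 1 bright gene, TNNT1, which was not called there (-0.27, adjusted p = 0.121, limma). One of the 11 tested, TNNI2, a fast-muscle troponin, was lower in S154D than in S154A cells under CDCA (-1.04 ± 0.16, adjusted p = 0.0286, limma). The muscle markers had a median of -0.11 there, against 0.06 over all genes, and reached 0.31 (TNNT3). Over all marker lists 1 of 72 was called in that comparison, or 1.39%, beside 0.403% of all genes. Of the leukocyte markers PTPRC, CD79B and CD53 were well above background on no array. On all 12 arrays 10 of 19 were, among them CD3E, CD79A, CD8A, ITGAM and CSF1R. The leukocyte sum lay between 1.75 and 2.27 in S154D_CDCA and 2.23 and 2.41 in S154D_DMSO. It lay between 2.13 and 2.27 in S154A_CDCA and 2.01 and 2.44 in S154A_DMSO. For CDCA in S154A cells 0 of 12 tested were called.

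Markers of the labelled cell type gave a mixed picture: fibroblast markers were well above background on all 12 arrays for 10 of 14 genes and renal epithelial markers for 6 of 15, while COL1A2 and SLC22A6 were so on none. Summed fibroblast markers lay between 7.22 and 7.49 in S154D_CDCA, 7.39 and 7.66 in S154D_DMSO, 7.23 and 7.57 in S154A_CDCA and 7.31 and 7.51 in S154A_DMSO, so that all groups overlapped. The bright gene VIM led this sum. General epithelial markers, all 11 of them tested, summed to between 6.69 and 6.90 in S154D_CDCA, 7.02 and 7.07 in S154D_DMSO, 7.06 and 7.12 in S154A_CDCA and 6.83 and 7.07 in S154A_DMSO. The S154D_CDCA arrays lay below the S154A_CDCA arrays and also below the S154D_DMSO arrays, in both cases without overlap. Taken singly, 7.62% and 13.6% of all genes were lower without overlap in these comparisons. The sum is led by the bright keratins KRT8 and KRT18, at -0.32 and -0.27 for S154D against S154A under CDCA. By gene 0 of 11 were called by limma in that comparison, 8 had lower and 3 higher means in S154D_CDCA, and the 3 were CDH1 (0.20), TACSTD1 (0.35) and OCLN (0.33). Of cardiac, renal, fibroblast, epithelial and hepatocyte markers, 0 were called for CDCA in S154A cells. For CDCA in S154D cells 6 of the 72 markers tested were called, or 8.33%, near the 10.2% of all genes. These were the natriuretic peptide gene NPPB (-0.38), the leukocyte actin regulator CORO1A (-0.62), the epithelial adhesion gene TACSTD1 (0.51), the tight junction genes CLDN4 (-0.70) and OCLN (0.51) and the collagen gene COL1A1 (-0.56), with adjusted p-values between 0.0280 and 0.0460 (limma). With slide as a block no gene of the whole array was called in that comparison. The part of the markers in the members' values was not tested.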

How the data were processed

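A total of 12 one-colour Agilent arrays were used. Per the file headers, the deposited intensity (processed signal) had been background-subtracted and detrended by Agilent Feature Extraction 9.5.3.1 (the submitters' processing notes name version 12), with hg17 coordinates. The other deposited columns hold flags per spot and probe descriptions. The deposited series table holds the same intensity on all 45015 features, so no scaling between arrays was found.

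Outlier spots were removed (66 to 196 per array). log2 signal minus the array's 75th percentile (1234 to 2107) was computed over 43376 non-control spots, averaged to 41000 probes. Probes well above background on all 3 arrays of a group were kept (26898), and the brightest probe per name stood for the gene (20355). The 4 group means were estimated from the 12 arrays together by limma 3.58.1 in R 4.3.3 (prior degrees of freedom 2.3, residual 8). Figures used matplotlib 3.10.9. The fit was tested on simulated data.

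The members, gene lists and tests were chosen with earlier results of these data known. Named were all members, the 3 most alike genes of each, FABP6, FGF19, OSTalpha and SDC1 as a yardstick, defining markers, and called genes of the lists, at most the 4 largest. Some genes under that rule are not reported here. Neighbouring genes were added after the values could be seen, and C1orf170, KLF15, PRDM16 and KLHL17 are named because they were called. Same-numbered arrays of different groups correlated at -0.35 to 0.51, with 9 of 18 pairs over 0.1, against 15 of 36 pairs with other numbers. Numbers were therefore not taken as pairs. Of the pairs of different groups on the same slide, 9 of 12 were over 0.1. The main fit has no slide term, and slide as a block was an alternative. Alternatives were quantile and normexp normalization, the unscaled series table, filters on dim probes, slide and replicate blocks, probe GC correction and leaving out arrays or slides.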

Additional observations from a re-analysis of the deposited data

How the results depend on the processing

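Across 24 alternatives no member was called in S154D cells for CDCA or between mutants in DMSO, and the members' differences in the 2 comparisons used to choose them kept their sign in all 189 values each. Uncalled differences took the other sign in 9 of 189 values in each of the 2 tested comparisons. For CDCA in S154A cells, 27 genes and 7 members were called. These became 15 and 3 with the unscaled series table, 7 and 3 with slide as a block, 10 and 4 without slide 2, and 12 and 4 with only the arrays of the comparison. Members became 4 without the filter on dim probes and 4 with the replicate block. For S154D against S154A under CDCA, 82 genes and 8 members were called. These became 9 and 3 with the series table, 3 and 1 with slide as a block, 14 and 5 with only the arrays of the comparison, and 147 and 5 (of 5 tested) with probes well above background on all 12 arrays. Genes became 203 with quantile normalization, 31 without the filter, 53 with the replicate block and 45 with GC correction. Members became 5 without slide 2. For CDCA in S154D cells, 2073 genes were called by limma, against 1 with the series table and 50 without slide 2. None was called without the filter (5700 with an unadjusted p under 0.05), with slide as a block (4508), with the replicate block (6116), with GC correction (3724) or with only the arrays of the comparison (5246). Between mutants in DMSO, 0 genes were called, and 1 with the series table, which shifts the median of all genes by -0.24 there. The cause of these moves was not tested.

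Leaving out 1 array at a time gave 15 to 27 genes and 3 to 6 members for CDCA in S154A cells, with 3 members without S154A_DMSO replicate 3. It gave 19 to 271 genes and 5 to 7 members for S154D against S154A under CDCA, with 19 genes and 5 members without S154A_CDCA replicate 3 and 271 genes without S154D_CDCA replicate 1. For CDCA in S154D cells it gave 0 to 2125 genes and 0 to 0 members, with 0 genes called by limma without S154D_DMSO replicate 3 (4475 with an unadjusted p under 0.05) and 1 gene without S154D_DMSO replicate 1 or S154D_CDCA replicate 3. Between mutants in DMSO it gave 0 genes and 0 members. Without slide 2, S154D_CDCA keeps 1 array, which is assumed to vary like the other groups. Signal near background limits CCDC37, WDFY4, MYOM2, A_32_P232437 outside S154A_CDCA and the second BAIAP2L2 probe.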
